A study of Orbilia oligospora with 9 samples.

Results

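The sugar transporter family of Orbilia oligospora, a soil fungus also called Arthrobotrys oligospora that catches nematodes with adhesive networks, was described here through the transcript levels of its genes. Members were the genes with a locus tag whose Pfam annotation in the deposited table holds the sugar transporter domain. This gave 39 genes, out of 12901 loci in the table, of which 11144 carry a locus tag. Of the 40 loci with the domain, 1 was left out by the rule, for a reason not given here. The members were otherwise picked by annotation words, with earlier results of these data known.

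Carriers of this family sit in membranes and belong to the large major facilitator superfamily. They let a sugar or a related small molecule pass along its gradient, or couple its entry to protons. In yeasts and moulds the family covers carriers of hexoses, maltose, lactose and cellobiose, and also of quinate, inositol, glycerol, phosphate and organic acids. In baker's yeast many carriers of carbon sources other than glucose are kept low while glucose is present and are made when their substrate is. These roles come from other fungi, and for O. oligospora they rest on the annotation alone.

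Hyphae of strain ATCC 24927 were compared in 3 groups of 3 libraries, all grown for 5 days at 28 °C on TYGA, a tryptone yeast glucose agar, and all tagged as differentiating aerial hyphae. The groups are an Aomdv1 mutant, an Aovps1 mutant and the wild type (WT). Mdv1 is an adaptor that brings dynamin to dividing mitochondria in yeast, and Vps1 is a dynamin-related protein of vacuolar sorting. The sample labels call both mutants knockdowns, while the series text writes them as deletions, and the number of transformants behind each is not given in the sources used here. The replicates are called biological, without word on separate plates, so p-values measure the spread between these libraries.

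Values are FPKM, fragments scaled to gene length and library size, so levels of different genes can be compared. The depth, estimated from the steps between low values, was 15650000 to 19350000 fragments per library. At the median member span of 1866 bp an FPKM of 1 stood for 29.2 to 36.1 fragments. Transcripts of the targeted genes remained, so mutant libraries are named by their label: "Aomdv1-labelled" and "Aovps1-labelled". The MDV1 gene AOL_s00097g206 had 126.95, 117.84 and 82.46 FPKM in the Aomdv1-labelled libraries, against 133.24, 116.38 and 113.93 in WT, and these ranges overlap. The VPS1 gene AOL_s00007g394 had 44.34, 22.55 and 46.92 FPKM in the Aovps1-labelled libraries, against 105.38, 72.7 and 83.09 in WT, without overlap. It was also below WT in every Aomdv1-labelled library, at 41.24, 55.05 and 35.74 FPKM. WT library 3 stood apart for this family: it was the highest WT library for 23 of the 30 tested members (76.7%), as it was for 53.8% of all tested loci. It was over 2 times both other WT libraries for 12 of those members and over 5 times for 4. In these whole-culture samples, fewer cells of a type and less RNA per cell cannot be told apart.

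The table's Swiss-Prot text placed 7 members with hexose carriers, 9 with lactose or cellobiose carriers, 6 with maltose or alpha-glucoside carriers and 5 with quinate carriers. A further 2 were annotated for phosphate, 1 for glycerol and 1 for inositol, and 8 for other or unknown cargo. For those 8 the Swiss-Prot match names no sugar, although the KEGG text of 5 of them, all like ecdD or oryC, is that of sugar-proton symporters. The KEGG entry of the inositol-type AOL_s00006g281, K08150, is also given to the glycerol-type AOL_s00140g74. It is given as well to the hexose-type AOL_s00075g30, AOL_s00054g384 and AOL_s00210g168, so their role here rests on the Swiss-Prot match. No member was annotated as a glucose sensor or as a pentose or uronate carrier. The genes lie on 20 scaffolds, at most 6 on one, with 17 on the plus and 22 on the minus strand. A single pair of members is adjacent, AOL_s00215g871 and AOL_s00215g872.

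One carrier dominated the family. AOL_s00043g320, most like ecdD, a carrier from the echinocandin gene cluster of Aspergillus rugulosus, had 496.26, 510.31 and 312.91 FPKM in the Aomdv1-labelled libraries, 357.81, 505.77 and 526.62 in the Aovps1-labelled ones and 392.34, 563.17 and 686.39 in WT. The groups overlapped, and the gene was not called in either mutant (log2 fold change -0.31 and -0.22, limma with Benjamini-Hochberg adjusted p = 0.623 and 0.67). It held 25.21 to 47.24% of the family's summed FPKM, and ranked 387 among all loci by mean level. It was the only member with a mean over the 9 libraries of 100 FPKM or more. Of the 39 members, 20 had a mean of 10 or more and 11 a mean under 1.

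Together the 39 genes took 0.0951% ± 0.0274 of the summed FPKM in the Aomdv1-labelled libraries, 0.101% ± 0.0089 in the Aovps1-labelled ones and 0.143% ± 0.074 in WT (SD, n = 3 each). By library the share was 0.1073, 0.1142 and 0.06366% under the Aomdv1 mutant label, 0.09455, 0.09772 and 0.1113% under the Aovps1 mutant label, and 0.09423, 0.1057 and 0.2278% in WT. Aomdv1-labelled library 3, with the lowest share, had the lowest family sum, 887.9 FPKM. It also had the highest sum over all loci, 1394694 FPKM, where the next highest was 1195210 in WT library 3. WT library 3 alone carried the higher WT mean, and without it WT stood at 0.1%, inside the range of the mutant libraries. In that library the quinate-type gene AOL_s00080g195 and the lactose-type gene AOL_s00078g582 were far above their level in the other WT libraries, as the plot of summed levels by role shows.

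**Figure D1:**
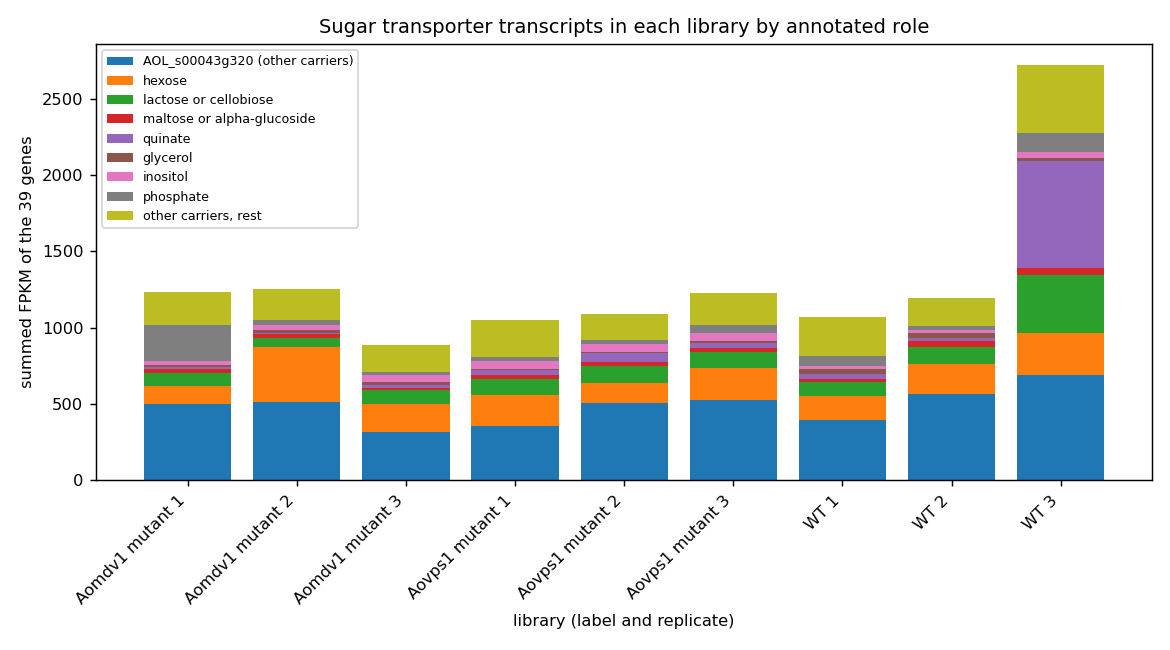
Summed FPKM of the 39 sugar transporter genes in each of the 9 libraries, stacked by annotated role, with the most abundant gene AOL_s00043g320 drawn apart from the other carriers. WT library 3 reaches 2723 FPKM, while the other 8 libraries lie between 887.9 and 1251.

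**Figure D2:**
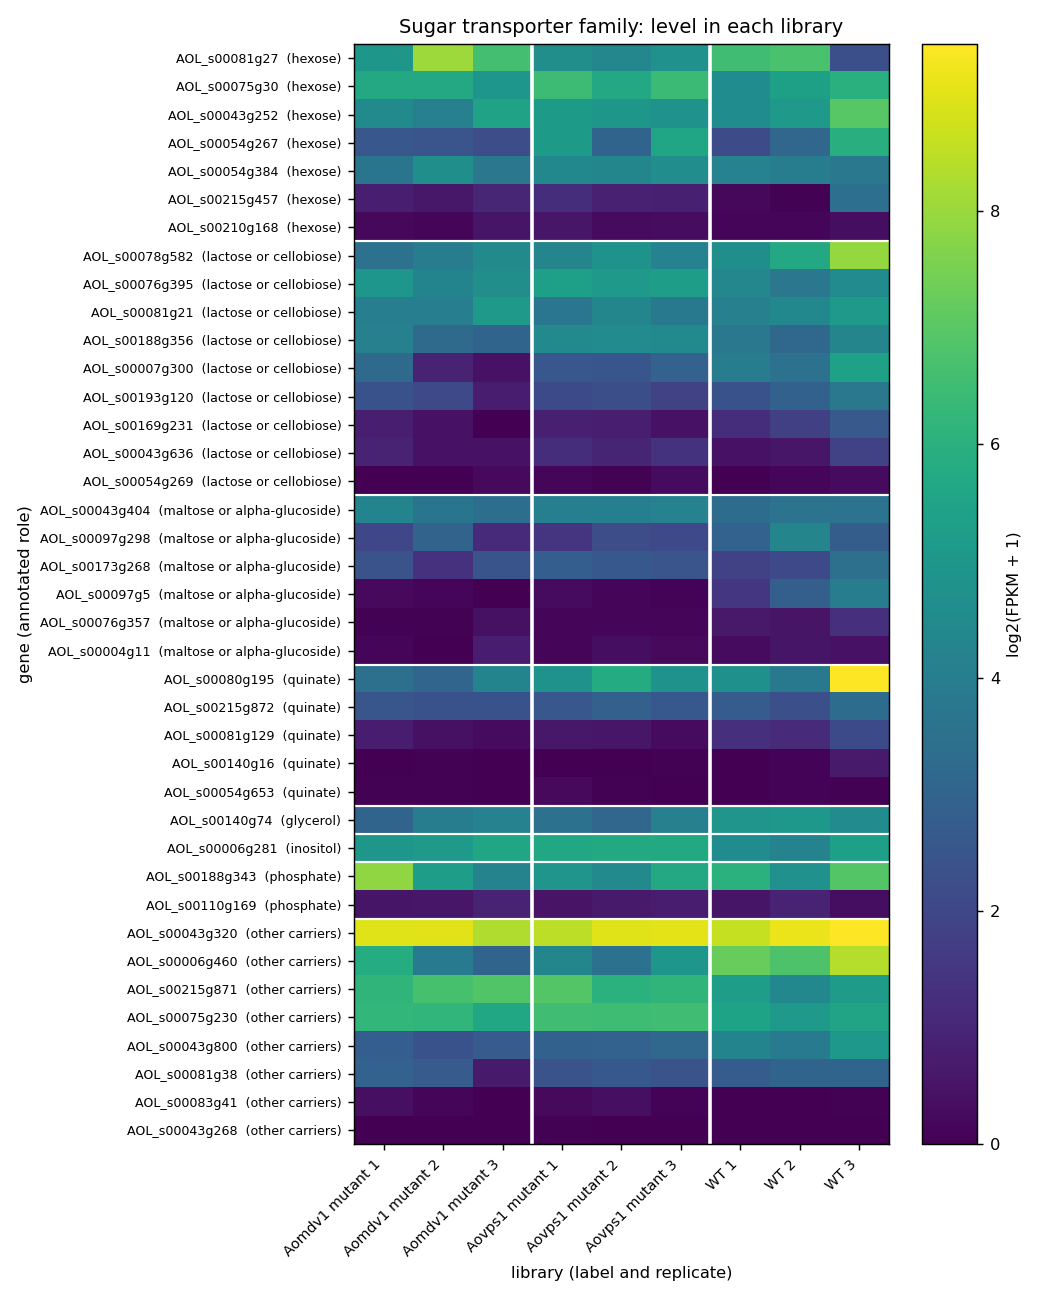
Level of each of the 39 genes as log2(FPKM + 1), colour, in each library, columns, with genes grouped by annotated role and sorted by mean level. AOL_s00043g320 is bright in every library, and AOL_s00080g195 is brightest in WT library 3.

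A gene was tested when its FPKM was 1 or more in at least 3 libraries, which 30 of the 39 members and 10318 loci were. The 9 untested members had means of at most 0.5633 FPKM and include 2 of the 6 maltose-type, 2 of the 5 quinate-type and 1 of the 2 phosphate-type genes. Fold changes are differences of log2(FPKM + 1), which understate the change of low genes. A gene was called at an adjusted p under 0.05 in the model of all 9 libraries. Both mutants are set against the same 3 WT libraries, so the comparisons are not independent of each other.

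In the Aomdv1-labelled libraries, 1 of the 30 tested members rose and 5 fell against WT. That is 20% of them, against 9.84% of all tested loci, of which 5.62% rose and 4.22% fell. Of the 5 that fell, AOL_s00097g5 and AOL_s00169g231 entered the test through WT alone, the group where they are high. The median log2 fold change of the members was -0.41, and that of all tested loci was 0.08. All 3 libraries of one group lay outside the range of the other for 10 members (33.3%), against 22.1% of all loci. Of these, 2 members were higher and 8 lower, against 13.5 and 8.56% of all loci. The 8 include AOL_s00097g5, AOL_s00169g231 and AOL_s00081g129, which entered through WT alone and had to lie lower. That count is thus in part set by the filter. At an unadjusted p under 0.05 there were 12 members, the genes that entered through WT alone included, against 22.8% of all loci. The count of 6 depended on single libraries. It was 2 without Aomdv1-labelled library 2, 3 without WT library 1, 2 without WT library 2, and 3 without WT library 3, where the members' median was -0.07. Without WT library 1, 2 or 3, only 27, 27 and 25 members were tested. AOL_s00097g5, AOL_s00169g231 and AOL_s00081g129 were not among them, so the calls of the first 2 were lost to the filter. The medians there cover other sets of members. Median-ratio scaling shifted the median of all loci to -0.06 and that of the members to -0.50.

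In the Aovps1-labelled libraries, 2 members rose and 4 fell, again 20% of the 30, against 13.8% of all tested loci, of which 8.61% rose and 5.21% fell. Of the 4 that fell, AOL_s00097g5 and AOL_s00081g129 entered the test through WT alone. The members' median log2 fold change was -0.50, and that of all loci 0.30. The groups did not overlap for 17 members (56.7%), against 46% of all loci. Of these, 7 members were higher and 10 lower, against 33 and 13% of all loci. The 10 include AOL_s00097g5, AOL_s00169g231 and AOL_s00081g129, which entered through WT alone and had to lie lower. That count too is in part set by the filter. At an unadjusted p under 0.05 there were 13 members, the genes that entered through WT alone included, against 30.5% of all loci. The count of 6 was 1 without Aovps1-labelled library 1, 1 without library 2 and 2 without library 3 of that label, and 2 without WT library 1 or WT library 2. It was 11 without Aomdv1-labelled library 3. Without WT library 3 it was again 6, of 25 tested members, with 4 rising and 2 falling, and the median was 0.17. Without any one WT library AOL_s00097g5, AOL_s00169g231 and AOL_s00081g129 could not be tested, so those counts and medians cover other sets of members. The 2 falls missing without WT library 3 are those of AOL_s00097g5 and AOL_s00081g129. Median-ratio scaling gave 0 rising and 6 falling members, and quantile scaling 1 and 6. With those scalings the median of all loci was -0.01 and 0.08, and that of the members -0.83 and -0.76.

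No member was called between the mutants. Of the 30 tested, 0 passed the threshold for the Aovps1-labelled libraries against the Aomdv1-labelled ones by limma, as were 0% of all tested loci. At an unadjusted p under 0.05 there were 2 members, and 978 loci or 9.48%. The members' median difference was 0.34, and that of all loci 0.16. The ranges of the mutants did not overlap for 11 members, which is 36.7% against 23.5% of all loci. Of these, 10 were higher and 1 lower under the Aovps1 mutant label, against 17.4 and 6.1% of all loci.

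**Figure D3:**
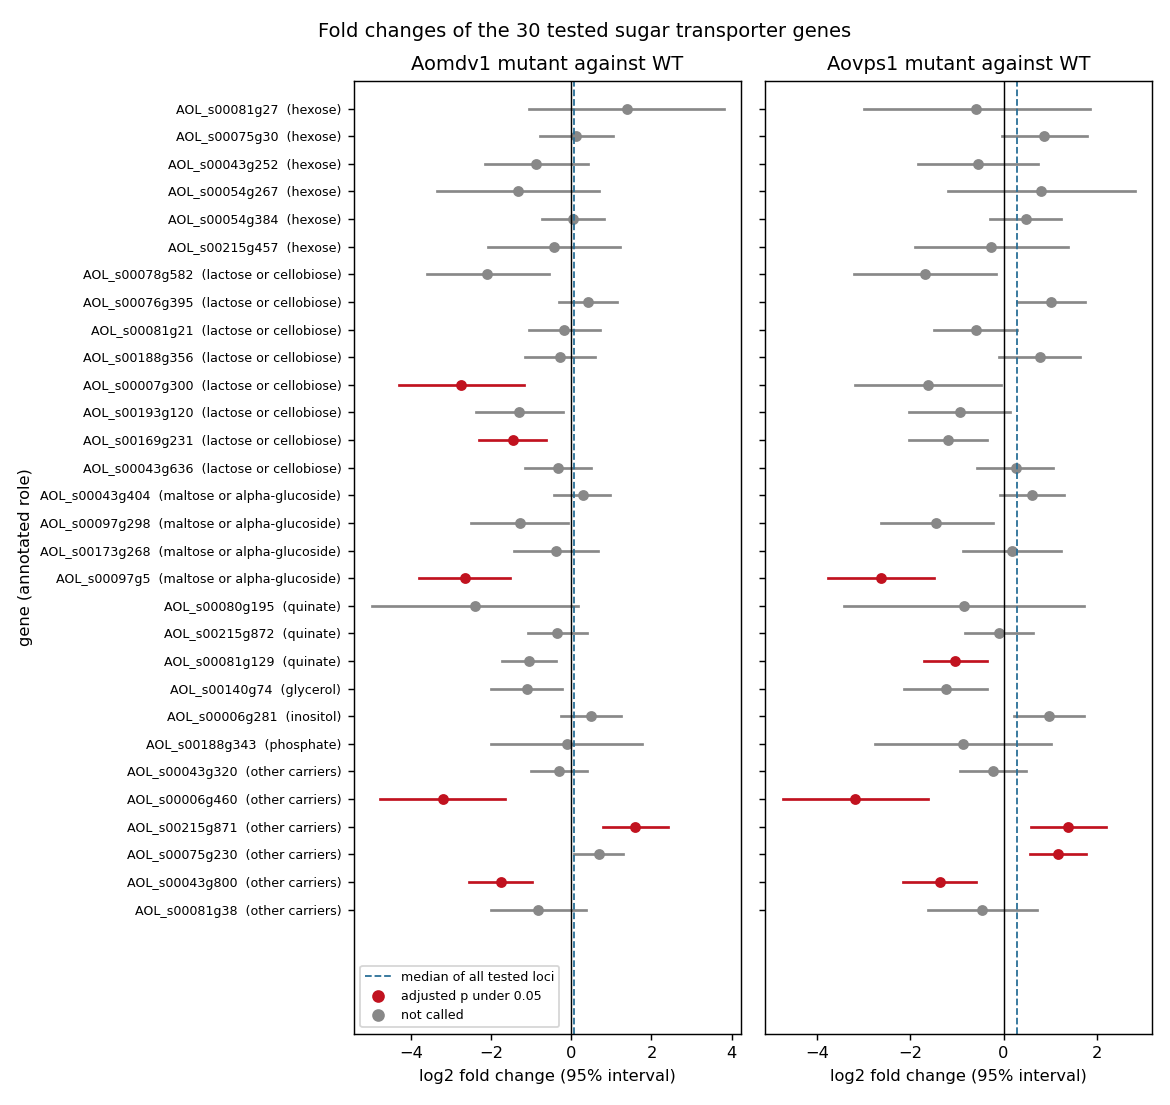
Log2 fold change with its 95% interval for each of the 30 tested members, by role, for the Aomdv1 mutant (left) and the Aovps1 mutant (right) against WT, with called genes in red and the median of all tested loci as a dashed line. Called genes lie in the lactose, maltose, quinate and other-carrier groups, and no hexose gene is red.

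None of the 6 tested hexose carriers was called in either mutant, where 9.84 and 13.8% of all tested loci were. Their medians were -0.19 and 0.11 for the Aomdv1 and the Aovps1 mutant. Carriers of this type take up glucose and other single sugars in yeasts. AOL_s00081g27, like the fission yeast hexose carrier Ght2, had 30.72, 264.63 and 97.63 FPKM in the Aomdv1-labelled libraries, 24.54, 19.71 and 26.09 in the Aovps1-labelled ones and 91.59, 103.56 and 3.91 in WT. WT library 3 was the lowest of all 9 here, and Aomdv1-labelled library 2 the highest. The wide spread left intervals of -1.05 to 3.8 for the Aomdv1 mutant and -3.0 to 1.85 for the Aovps1 mutant (adjusted p = 0.517 and 0.755). AOL_s00075g30, like the yeast high-affinity glucose carrier Hxt2, had 50.22, 51.2 and 29.93 FPKM in the Aomdv1-labelled libraries, 86.9, 50.33 and 85.58 in the Aovps1-labelled ones and 23.08, 39.77 and 62.95 in WT. All groups overlapped (log2 fold change 0.13 and 0.88, adjusted p = 0.892 and 0.182). The carriers like Candida and Kluyveromyces Hgt1, which bring in glucose with high affinity, showed no shared direction. AOL_s00043g252 averaged 26.7 ± 13.6 FPKM, 31.1 ± 3.25 and 60.6 ± 57.0 in the Aomdv1 mutant, Aovps1 mutant and WT libraries (SD, n = 3 each), with 126.21 in WT library 3 alone. AOL_s00054g384 averaged 16.2 ± 7.31, 21.1 ± 2.46 and 14.9 ± 2.10 in the same groups, and only its Aovps1-labelled libraries were all above WT. AOL_s00215g457 was near 1 FPKM or below except in WT library 3, where it had 9.99. AOL_s00054g267 matches another hexose-type entry, MF127_ASPFN, and not Hgt1. It had 34.32, 7.12 and 45.3 FPKM in the Aovps1-labelled libraries, against 4.96, 4.59 and 3.66 in the Aomdv1-labelled ones. Those groups did not overlap, yet the difference was not called (2.14, interval 0.13 to 4.15, adjusted p = 0.523), and WT at 3.61, 7.64 and 60.79 spanned them. The untested AOL_s00210g168 stayed at or under 0.49 FPKM in every library.

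Lactose-type carriers were the largest group, with 8 tested of 9. Their best match is the lactose permease of Kluyveromyces lactis, and carriers of cellobiose and longer cellulose fragments in moulds resemble it. In the Aomdv1-labelled libraries 2 fell, where 4.22% of all tested loci did, and 1 of the 2, AOL_s00169g231, entered the test through WT alone. In the Aovps1-labelled ones 0 were called, where 13.8% of all tested loci were. At an unadjusted p under 0.05 there were 4 of the 8 in each mutant, against 22.8 and 30.5% of all loci. AOL_s00169g231, which had to differ, is among them in both mutants. In the Aovps1 mutant they also include AOL_s00076g395, which went up, so the count gives no single direction. The medians were -0.82 and -0.77, and those of all loci 0.08 and 0.30.

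AOL_s00007g300 (scaffold NW_011645564.1, 1067978 to 1069723, minus strand) had 8.48, 0.94 and 0.39 FPKM in the Aomdv1-labelled libraries, 4.9, 4.69 and 6.75 in the Aovps1-labelled ones and 14.42, 10.53 and 41.59 in WT. Every mutant library was below every WT library. In the Aomdv1 mutant it fell by 2.74 log2 units (interval -4.30 to -1.18, limma adjusted p = 0.035), while the Aovps1 mutant gave -1.62 (adjusted p = 0.15). Over 16 alternatives the adjusted p in the Aomdv1 mutant ran from 0.00455 to 0.0979. The call was lost with no filter (0.0577), in the fit of the 2 groups alone (0.0979) and without any single library other than Aomdv1-labelled library 1 (0.0568 to 0.0958).

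AOL_s00169g231 (NW_011645726.1, 789075 to 791192, minus) was low, at 0.74, 0.39 and 0 FPKM in the Aomdv1-labelled libraries, 0.77, 0.74 and 0.38 in the Aovps1-labelled ones and 1.37, 2.43 and 5.25 in WT. No mutant library reached the lowest WT library. It fell by 1.46 in the Aomdv1 mutant (adjusted p = 0.0344), and the Aovps1 mutant gave -1.19 (0.0607). It entered the test through its WT values alone, and a gene kept in this way had to differ. Without the filter the adjusted p was 0.0345 and 0.0621. Over 12 alternatives it ran from 0.014 to 0.107 in the Aomdv1 mutant. The call was lost with a pseudocount of 0.1 (0.0533), with a replicate block (0.0652) and in the fit of the 2 groups alone (0.107). It was also lost without Aomdv1-labelled library 2 or 3 (0.0719 and 0.079) or Aovps1-labelled library 1, 2 or 3 (0.061, 0.0599 and 0.0578). Without any one WT library the gene did not pass the filter.

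The other lactose-type genes were not called. AOL_s00078g582 had 10.69, 15.13 and 22.06 FPKM in the Aomdv1-labelled libraries, 18.67, 27.27 and 17.19 in the Aovps1-labelled ones and 25.14, 50.79 and 244.46 in WT. The Aomdv1-labelled libraries were all below WT, while the Aovps1-labelled ones overlapped it (-2.09 and -1.68, adjusted p = 0.0903 and 0.129). WT library 3 was 4.81 times the higher of the other WT libraries, and without it the values were -1.17 and -0.77. Without WT library 1 the gene was called in both mutants (-2.79 and -2.38, adjusted p = 0.0335 and 0.0498, in ranges of 0.0335 to 0.21 and 0.0498 to 0.301). AOL_s00193g120 had 4.18, 3.27 and 0.64 FPKM in the Aomdv1-labelled libraries, 3.36, 3.75 and 2.65 in the Aovps1-labelled ones and 4.14, 6.65 and 12.63 in WT (-1.30 and -0.94, adjusted p = 0.139 and 0.222). AOL_s00076g395 and AOL_s00188g356 went the other way in the Aovps1 mutant. The first had 39.32, 33.73 and 37.69 FPKM in the Aovps1-labelled libraries and 19.5, 12.31 and 22.71 in WT (1.02, adjusted p = 0.0625). The second had 22.13, 22.33 and 21.84 against 12.74, 8.11 and 18.65 in WT (0.78, adjusted p = 0.208). In both, every Aovps1-labelled library was above every WT library. AOL_s00081g21 averaged 21.1 ± 9.97, 14.8 ± 3.86 and 23.4 ± 8.96 FPKM in the Aomdv1 mutant, Aovps1 mutant and WT libraries, and AOL_s00043g636 averaged 0.537 ± 0.289, 1.31 ± 0.306 and 1.12 ± 1.21 (SD, n = 3 each). Both overlapped with WT in each mutant, and the untested AOL_s00054g269 stayed at or under 0.22 FPKM.

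The maltose group held the member with the deepest relative loss. AOL_s00097g5 (NW_011645654.1, 14003 to 15742, plus) is most like Mal31, which in yeast carries maltose in with a proton. It had 0.17, 0.1 and 0 FPKM in the Aomdv1-labelled libraries, 0.2, 0.09 and 0.06 in the Aovps1-labelled ones and 1.8, 6.23 and 15.01 in WT. The gene was close to silent in all 6 mutant libraries and present in all WT libraries, at 1.172 and 1.519% of the WT mean. It fell in both mutants, with a log2 fold change of -2.66 (interval -3.79 to -1.53, limma adjusted p = 0.00824) and -2.62 (-3.76 to -1.49, 0.00796). It too entered the test through WT alone; without the filter the adjusted p was 0.0133 and 0.0127. The call held under the 12 alternatives that could test it (0.00343 to 0.0359 and 0.0042 to 0.0373). It could not be tested with a minimum mean of 5 FPKM or without any one WT library.

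No other maltose-type gene was called, and differences between these genes were not tested. AOL_s00097g298, like the yeast alpha-glucoside permease Mal11, had 3.07, 7.02 and 1.18 FPKM in the Aomdv1-labelled libraries, 1.64, 3.74 and 3.19 in the Aovps1-labelled ones and 6.84, 18.35 and 5.85 in WT, where library 2 was the highest. Its Aovps1-labelled libraries were all below WT and its Aomdv1-labelled ones overlapped it (-1.29 and -1.44, adjusted p = 0.188 and 0.105). AOL_s00043g404, of the same type, had 15.66, 16 and 17.34 FPKM in the Aovps1-labelled libraries, all above the 9.04, 11.19 and 10.94 of WT (0.61, adjusted p = 0.217). AOL_s00173g268 averaged 3.44 ± 1.63, 5.25 ± 0.807 and 5.29 ± 4.20 FPKM in the Aomdv1 mutant, Aovps1 mutant and WT libraries (SD, n = 3 each) and overlapped in both comparisons. The untested AOL_s00076g357 had 0.04, 0.04 and 0.35 FPKM under the Aomdv1 mutant label, 0.1 in each library under the Aovps1 mutant label and 0.58, 0.41 and 1.47 in WT. All its mutant libraries were below WT, as for AOL_s00097g5. AOL_s00004g11, also untested, stayed at or under 0.65 FPKM.

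Around AOL_s00097g5 lie other genes of sugar use, among genes annotated otherwise or not at all, a description made after values were seen. The alpha-glucosidase gene AOL_s00097g3 (7787 to 10021, plus), whose product splits maltose, had 7.36, 17.24 and 9.53 FPKM in the Aomdv1-labelled libraries, 6.05, 13.81 and 3.7 in the Aovps1-labelled ones and 28.01, 133.75 and 181.79 in WT. No mutant library reached WT. It fell in both mutants (log2 fold change -2.93 and -3.50, limma adjusted p = 0.0223 and 0.0082). These calls were lost without WT library 2 (0.114 and 0.0515), and the first also without WT library 3 (0.0566) or Aomdv1-labelled library 1 (0.077), in ranges of 0.00451 to 0.114 and 0.00191 to 0.0515 over 16 alternatives. Between them lies AOL_s00097g4 (10653 to 12811, plus), like the Candida regulator of sucrose use SUC1, at 1.79, 1.85 and 1.96, then 2.13, 2.44 and 2.31, and in WT 2.12, 7.62 and 16.97 FPKM. WT library 1 was at the level of the mutant libraries, and the gene was not called (-1.45 and -1.25, adjusted p = 0.121 and 0.137). Without that library it was called in both mutants (-2.12 and -1.92, adjusted p = 0.0115 and 0.0157, in ranges of 0.0115 to 0.313 and 0.0157 to 0.325). Nearer the scaffold end, AOL_s00097g1, without annotation, fell in both mutants (-3.46 and -3.50, limma adjusted p = 0.0182 and 0.0144). Its calls were lost without WT library 2 (0.0871 and 0.0714). The first was also lost in the fit of the 2 groups alone (0.0507), the second without Aovps1-labelled library 2 or 3 (0.0519 and 0.0688). Falling neighbours are not particular to this locus. AOL_s00043g797 near AOL_s00043g800 (-2.94 and -3.02, limma adjusted p = 0.00155 and 0.00132) fell in both mutants. AOL_s00081g130 near AOL_s00081g129 did so too (-2.20 and -2.41, 0.00589 and 0.00323), while AOL_s00075g234 near AOL_s00075g230 rose in both.

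Within WT, the permease, the glucosidase and the regulator were all lowest in WT library 1 and highest in WT library 3. The order was the same for AOL_s00097g1, AOL_s00097g7 and AOL_s00097g8, while AOL_s00097g6 was lowest in WT library 2. It is thus not particular to the genes of sugar use, and WT library 3 was the highest WT library for 53.8% of all tested loci. On the other side, the HPP family gene AOL_s00097g6 (16427 to 17287, minus) gave -1.11 (adjusted p = 0.0886) in the Aomdv1 mutant and fell by 1.36 in the Aovps1 mutant (0.0339), a call lost when any Aovps1-labelled or WT library was left out (0.0555 to 0.153; range 0.0125 to 0.153). Beyond it AOL_s00097g7, like an uncharacterized secreted protein, overlapped WT in both mutants and was not called (-1.28 and -1.15, limma adjusted p = 0.427 and 0.397). A gene like the fission yeast malic acid carrier Mae1, AOL_s00097g8 (23161 to 24474, plus), rose in both mutants. It had 11.32, 10.23 and 7.58 FPKM in the Aomdv1-labelled libraries, 7.03, 7.5 and 9.41 in the Aovps1-labelled ones and 0.76, 0.81 and 2.22 in WT. All 6 mutant libraries were above all WT libraries (log2 fold change 2.28 and 2.04, limma adjusted p = 0.00188 and 0.00338), and both calls held under all 16 alternatives (0.000288 to 0.0147 and 0.00131 to 0.0258).

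**Figure D4:**
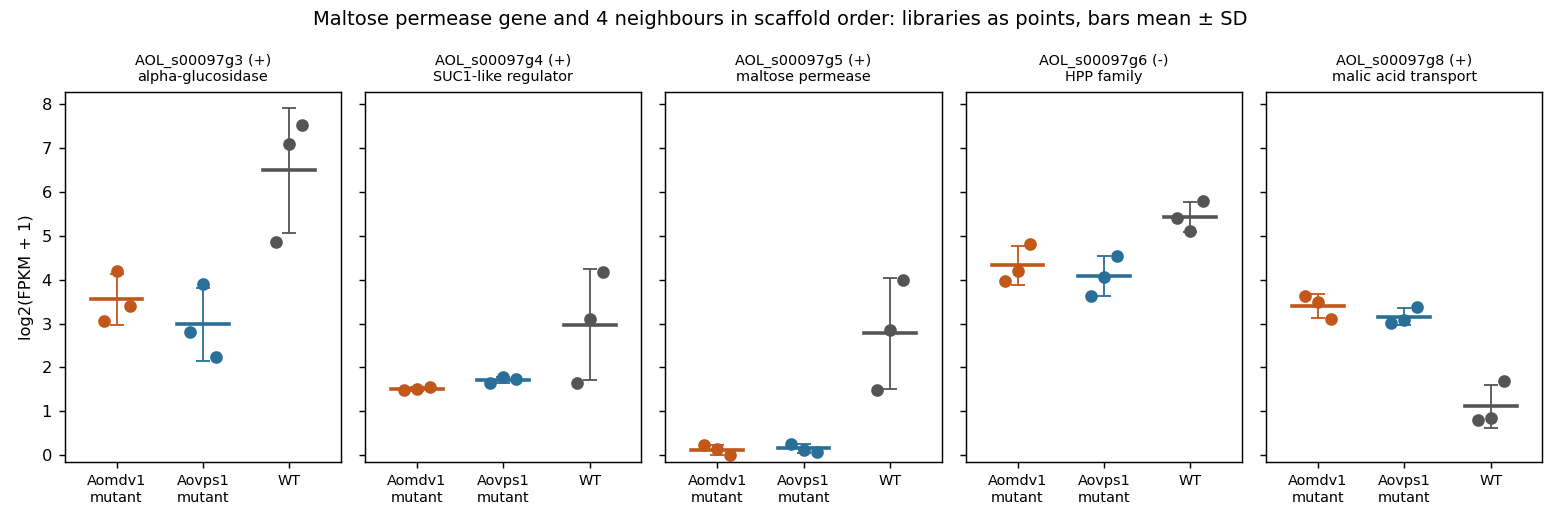
Levels as log2(FPKM + 1) of the maltose permease gene AOL_s00097g5 and 4 of its neighbours, in scaffold order with strand, for each library (points) and group (bar, mean ± SD). The neighbours AOL_s00097g1, AOL_s00097g2 and AOL_s00097g7 and a locus without a locus tag are not drawn. Alpha-glucosidase and permease are lower in both mutants and the malic acid carrier gene is higher.

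Quinate carriers, which in moulds bring in a plant acid used as a carbon source, had 3 of 5 members tested. None was called in the Aomdv1 mutant, where 9.84% of all tested loci were. In the Aovps1 mutant 1 fell, where 5.21% of all tested loci did. AOL_s00081g129 (NW_011645638.1, 449594 to 451327, plus), like the Aspergillus permease QutD, had 0.64, 0.34 and 0.21 FPKM in the Aomdv1-labelled libraries, 0.54, 0.48 and 0.2 in the Aovps1-labelled ones and 1.5, 1.2 and 3.31 in WT. The mutant libraries were all below WT. It gave -1.05 in the Aomdv1 mutant (adjusted p = 0.056) and fell by 1.04 in the Aovps1 mutant (limma, 0.0471). It entered the test through WT alone, and without the filter the values were 0.0382 and 0.0352. The Aovps1 call ran from 0.0131 to 0.18 over 12 alternatives. It was lost with a pseudocount of 0.1 (0.0596) and with a replicate block (0.0796). It was also lost without Aomdv1-labelled library 1 or 2 (0.0574 and 0.0612) or Aovps1-labelled library 1, 2 or 3 (0.118, 0.117 and 0.18). Without any one WT library the gene could not be tested.

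AOL_s00080g195, like the Neurospora permease Qa-y, had 10.04, 7.44 and 17.89 FPKM in the Aomdv1-labelled libraries, 27.16, 55.42 and 27.03 in the Aovps1-labelled ones and 25.49, 13.15 and 690.01 in WT. WT library 3 was 27.1 times the higher of the other WT libraries, and the comparison with WT was not called in either mutant (-2.40 and -0.85, adjusted p = 0.256 and 0.658). Without that library the log2 fold change was -0.68 in the Aomdv1 mutant and 0.87 in the Aovps1 mutant. AOL_s00215g872 averaged 4.43 ± 0.34, 5.46 ± 0.77 and 6.20 ± 2.61 FPKM in the Aomdv1 mutant, Aovps1 mutant and WT libraries (SD, n = 3 each). The untested AOL_s00140g16 and AOL_s00054g653 stayed at or under 0.6 and 0.18 FPKM.

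Carriers of glycerol, inositol and phosphate each had 1 tested member. None was called in either mutant, where 9.84 and 13.8% of all tested loci were. AOL_s00140g74, like the yeast glycerol-proton symporter Stl1, had 7.14, 14.5 and 17.2 FPKM in the Aomdv1-labelled libraries, 10.78, 7.61 and 16.19 in the Aovps1-labelled ones and 29.21, 31.72 and 22.23 in WT. All mutant libraries were below WT (-1.11 and -1.24, adjusted p = 0.121 and 0.066). In the Aovps1 mutant it was called under 5 of 16 alternatives (range 0.0275 to 0.221): both scalings (0.0412 and 0.042), the 2 groups alone (0.0275), and without Aomdv1-labelled library 1 or 3 (0.0471 and 0.0315). AOL_s00006g281, like the fission yeast inositol carrier Itr2, had 31.17, 32.48 and 45.6, then 47.53, 51.96 and 52.61, and in WT 23.17, 17.52 and 39.04 FPKM. Only the Aovps1-labelled libraries were all above WT (0.50 and 0.98, adjusted p = 0.437 and 0.0811). The Aovps1 value passed without Aomdv1-labelled library 3 (0.0392) or WT library 3 (0.0155), in a range of 0.0155 to 0.271. AOL_s00188g343, like a putative fission yeast phosphate carrier, had 230.65, 38.3 and 17.79 FPKM in the Aomdv1-labelled libraries, 29.32, 21.12 and 51.11 in the Aovps1-labelled ones and 63.77, 26.33 and 119.39 in WT. Its level spread over a wide range within each group (-0.11 and -0.87, adjusted p = 0.96 and 0.522). The untested AOL_s00110g169, like the Neurospora phosphate permease Pho-5, stayed at or under 0.93 FPKM.

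Of the 8 carriers with other cargo, 6 were tested. In the Aomdv1 mutant 1 rose and 2 fell, where 9.84% of all tested loci were called, and in the Aovps1 mutant 2 rose and 2 fell, where 13.8% were. AOL_s00006g460 (NW_011645563.1, 1495466 to 1497347, minus) matches a fission yeast metabolite carrier of unknown cargo, and the table's KEGG text places it with inorganic phosphate carriers, as it does 3 members in all. It had 56.94, 13.76 and 7.22 FPKM in the Aomdv1-labelled libraries, 19.13, 10.64 and 30.31 in the Aovps1-labelled ones and 149.49, 109.76 and 330.74 in WT. No mutant library reached the lowest WT library. It fell in both mutants, with a log2 fold change of -3.21 (interval -4.76 to -1.65, limma adjusted p = 0.0161) and -3.19 (-4.74 to -1.63, 0.0141), to 13.21 and 10.18% of the WT mean. Over 16 alternatives the adjusted p ran from 0.00327 to 0.0518 and from 0.00385 to 0.0642. The Aomdv1 call was lost without Aomdv1-labelled library 2 (0.0518) or WT library 1 (0.0502), and the Aovps1 call without Aovps1-labelled library 1 or 2 (0.0505 and 0.0642).

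AOL_s00043g800 (NW_011645600.1, 2723937 to 2725888, minus), which is like ecdD as the dominant gene is, had 5.97, 4.23 and 5.48 FPKM in the Aomdv1-labelled libraries, 6.61, 6.72 and 8.13 in the Aovps1-labelled ones and 17.91, 13.78 and 31.95 in WT. The mutant groups were tight, WT library 3 was the highest WT library, and no groups overlapped. It fell in both mutants, with a log2 fold change of -1.76 (-2.55 to -0.97, limma adjusted p = 0.0105) and -1.37 (-2.15 to -0.58, 0.03). The Aomdv1 call held without each library in turn and was lost in the fit of the 2 groups alone (0.0625, range 0.00359 to 0.0625). The Aovps1 call was lost without Aovps1-labelled library 1, 2 or 3 (0.123, 0.106 and 0.0905) or WT library 1 (0.0663), in a range of 0.00666 to 0.123. Of the other ecdD-like genes, AOL_s00081g38 was not called, at 4.29 ± 3.27, 4.56 ± 0.417 and 6.65 ± 0.875 FPKM in the Aomdv1 mutant, Aovps1 mutant and WT libraries (SD, n = 3 each), and AOL_s00043g268 was listed at 0 in 8 of the 9 libraries.

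Against these falls, AOL_s00215g871 (NW_011645772.1, 2990221 to 2992086, plus) rose in both mutants. It matches Jen1, which in baker's yeast takes up lactate and pyruvate and is repressed by glucose. It had 71.35, 101.21 and 116.89 FPKM in the Aomdv1-labelled libraries, 117.64, 63.94 and 71.93 in the Aovps1-labelled ones and 38.39, 20.15 and 36.22 in WT. Every mutant library was above every WT library, at 305.5 and 267.5% of the WT mean. The log2 fold change was 1.60 (0.80 to 2.41, limma adjusted p = 0.019) and 1.39 (0.59 to 2.20, 0.0305). The Aomdv1 call ran from 0.0207 to 0.0878 and was lost in the fit of the 2 groups alone (0.0603), without Aomdv1-labelled library 2 (0.052) or WT library 2 (0.0878). The Aovps1 call ran from 0.0168 to 0.143; it was lost with median-ratio and quantile scaling (0.0915 and 0.0517), without Aovps1-labelled library 1, 2 or 3 (0.143, 0.0575 and 0.0858) and without WT library 1 or 2 (0.0522 and 0.126). Its neighbour in the family, the quinate-type AOL_s00215g872 on the same strand, was not called in either mutant (-0.35 and -0.10, adjusted p = 0.596 and 0.86).

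AOL_s00075g230 (NW_011645632.1, 797160 to 798504, plus), like a yeast metabolite carrier of unknown cargo, had 75.69, 73.13 and 49.65 FPKM in the Aomdv1-labelled libraries, 91.89, 88.91 and 92.56 in the Aovps1-labelled ones and 43.4, 33.03 and 44.42 in WT. All mutant libraries were above WT, and the Aovps1-labelled ones agreed within 1.94 FPKM (SD, n = 3). It rose by 1.17 in the Aovps1 mutant (0.56 to 1.78, limma adjusted p = 0.0194), and the Aomdv1 mutant gave 0.69 (0.163). The Aovps1 call ran from 0.00466 to 0.0905; it was lost with median-ratio scaling (0.0536), without Aovps1-labelled library 1, 2 or 3 (0.0888, 0.0716 and 0.0905) and without WT library 1 or 2 (0.0502 and 0.0862). AOL_s00083g41, like a carrier of the oryzine cluster of Aspergillus oryzae, was untested and stayed at or under 0.31 FPKM.

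**Figure D5:**
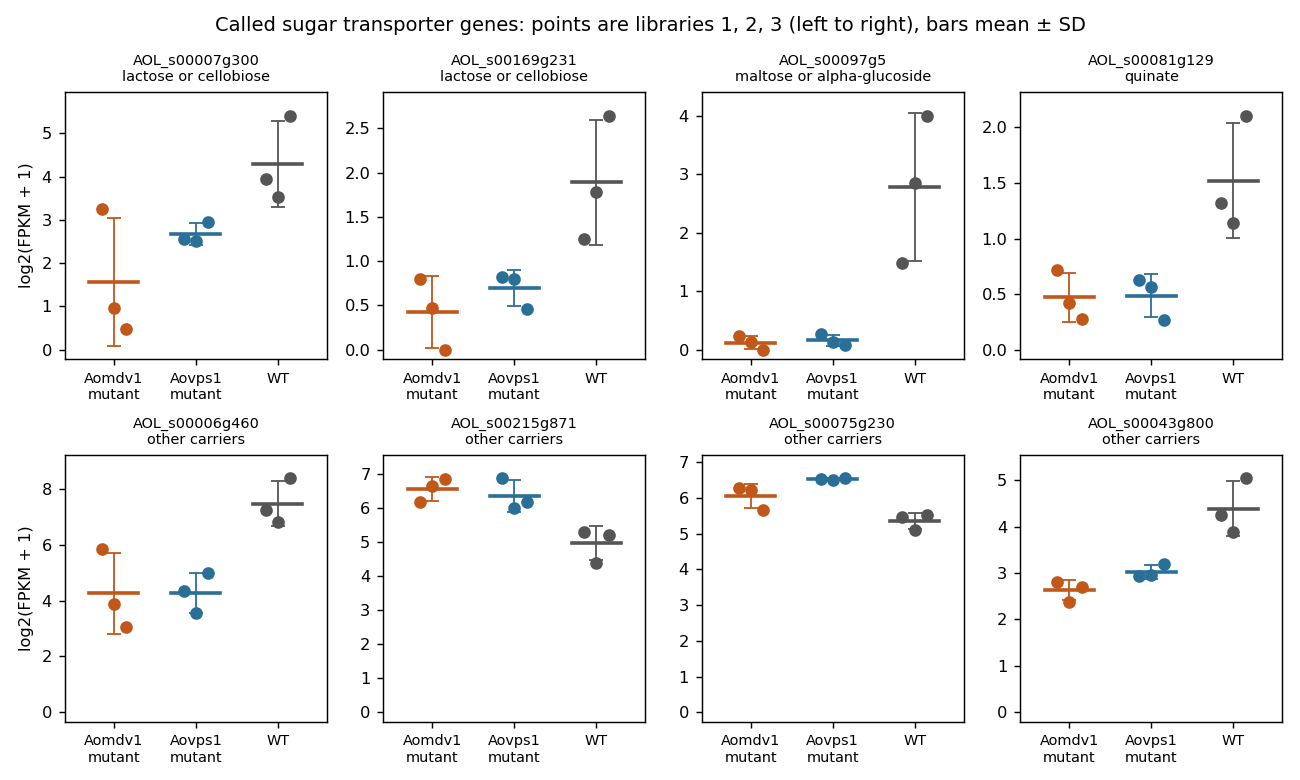
Levels as log2(FPKM + 1) of the 8 members called in at least 1 mutant, for each library (points) and group (bar, mean ± SD), with an axis of its own for each gene. In 6 panels the WT libraries lie above all mutant libraries, and in those of AOL_s00215g871 and AOL_s00075g230 they lie below. Of the 6, AOL_s00097g5, AOL_s00169g231 and AOL_s00081g129 entered the test through WT alone and had to show this.

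Both rising members belong to the group with other cargo. Of the 29 members outside that group and the phosphate group, 23 were tested. In the Aomdv1 mutant 0 rose and 3 fell, where 5.62 and 4.22% of all tested loci did. In the Aovps1 mutant 0 rose and 2 fell, where 8.61 and 5.21% of all tested loci did. The members' falls include AOL_s00097g5 in both mutants, AOL_s00169g231 in the Aomdv1 mutant and AOL_s00081g129 in the Aovps1 mutant. These genes entered the test through WT alone and had to differ, so the counts give no direction for the group. Carriers of the major facilitator superfamily without the sugar transporter domain served for comparison. Of their 73 tested genes, 7 rose and 9 fell in the Aomdv1 mutant (21.9% called) and 9 rose and 6 fell in the Aovps1 mutant (20.5%), with median log2 fold changes of -0.17 and 0.12. The share called was close to the 20% of the sugar transporter genes, but that difference was not tested.

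Genes that act on the sugars after or before uptake were counted from lists of annotation words. Of 6 genes for phosphorylation of hexoses, 1 rose in the Aomdv1 mutant and 3 rose in the Aovps1 mutant, where 5.62 and 8.61% of all tested loci rose. The medians of the list were 0.70 and 0.79, and those of all loci 0.08 and 0.30. Glucokinase AOL_s00004g632, which traps glucose in the cell as its phosphate, had 154.04, 148.18 and 117.56 FPKM in the Aomdv1-labelled libraries, 184.93, 169.14 and 178.71 in the Aovps1-labelled ones and 72.78, 62.32 and 85.9 in WT. Every mutant library was above every WT library. It rose by 0.92 and 1.27 on the log2 scale (limma adjusted p = 0.0448 and 0.00853). The Aomdv1 call held in 5 of 16 alternatives, in a range of 0.0191 to 0.196. It was lost without any single library other than Aomdv1-labelled library 3 or WT library 3 (0.0853 to 0.166), while the Aovps1 call was lost without Aovps1-labelled library 1 or 3 (0.0517 and 0.0512, range 0.00279 to 0.0517).

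Galactokinase AOL_s00004g284 rose by 1.83 in the Aovps1 mutant (0.0238; range 0.00646 to 0.108), a call lost without Aovps1-labelled library 1 or 3 (0.102 and 0.103) or WT library 1 or 2 (0.0791 and 0.108). A 6-phosphofructokinase, AOL_s00043g22, is in the list, and in its count, by its name. It acts at a later step, on a hexose that already carries a phosphate. It rose by 1.29 in the Aovps1 mutant (0.0241; range 0.00362 to 0.111), a call lost with median-ratio scaling (0.057), without Aovps1-labelled library 1, 2 or 3 (0.111, 0.0706 and 0.0953) and without WT library 1 or 2 (0.0685 and 0.0987).

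Of 40 tested genes for cleavage of disaccharides and glucosides, 2 rose and 3 fell in the Aomdv1 mutant and 5 rose and 2 fell in the Aovps1 mutant. Among all tested loci 9.84 and 13.8% were called, and the list is not shown to stand out from them. The list takes in enzymes that act on cell wall glucans. Among them the glucan 1,3-beta-glucosidase AOL_s00076g481 had 55.03, 45.1 and 37.84 FPKM in the Aomdv1-labelled libraries, 69.76, 34.05 and 57.16 in the Aovps1-labelled ones and 14.5, 6.75 and 10.03 in WT. Every mutant library was above every WT library. It rose by 2.08 and 2.26 (limma adjusted p = 0.00589 and 0.00338), and both calls held under all 16 alternatives. The glucan endo-1,6-beta-glucosidase AOL_s00043g294 rose by 1.05 and 1.67 (0.0483 and 0.00449). Its Aovps1 call held under all 16 alternatives (0.001 to 0.0336). Its Aomdv1 call held under 3 of them (range 0.00951 to 0.161) and was lost without any single library other than Aomdv1-labelled library 3 (0.0797 to 0.14).

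Falling genes of the list included a glucan endo-1,3-beta-glucosidase, AOL_s00078g575, with 25.86, 6.2 and 24.42 FPKM in the Aomdv1-labelled libraries, 42.02, 69.27 and 57.24 in the Aovps1-labelled ones and 91.63, 67.17 and 65.67 in WT. Only the Aomdv1-labelled libraries were all below WT. There it fell by 2.14 (limma adjusted p = 0.0194, range 0.0131 to 0.0824), a call lost in the fit of the 2 groups alone (0.0648) and without WT library 1 or 2 (0.0824 and 0.069). A glucan 1,3-beta-glucosidase, AOL_s00004g139, had 65.27, 60.62 and 71.27, then 68.63, 72.13 and 82.56, and in WT 143.02, 141.97 and 114.31 FPKM, with all mutant libraries below WT. It fell in both mutants (-1.0 and -0.83, adjusted p = 0.0279 and 0.0497). The Aomdv1 call held in 7 of 16 alternatives (0.0104 to 0.143) and was lost without any single library other than Aomdv1-labelled library 3 or WT library 3 (0.059 to 0.106). The Aovps1 call held in 8 of 16 (0.0166 to 0.19) and was lost without any single library other than those same libraries (0.0517 to 0.19). The alpha-glucosidase beside the maltose permease is the falling member with the largest log2 fold change in each mutant.

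Of 8 genes for pentose and polyol conversion, 0 were called in the Aomdv1 mutant, where 9.84% of all tested loci were. There 1 had an unadjusted p under 0.05, against 22.8% of all loci. Beside 5.21% of all loci, 1 gene of the list fell in the Aovps1 mutant. This is mannitol-1-phosphate dehydrogenase AOL_s00043g806, an enzyme of mannitol metabolism, with 10.45, 42.5 and 27.13 FPKM in the Aomdv1-labelled libraries, 10.28, 4.94 and 11 in the Aovps1-labelled ones and 94.05, 104.49 and 47.68 in WT. All mutant libraries were below WT. It fell by 3.08 in the Aovps1 mutant (0.00416), a call that held under all 16 alternatives, and the Aomdv1 mutant gave -1.71 (0.0729). None of the 5 regulators of carbon repression, of 2 genes for quinate use and of 4 for inositol use was called by limma in either mutant. At an unadjusted p under 0.05 the inositol list had 2 in each, and the others had 0. Among all tested loci 9.84 and 13.8% were called, and 22.8 and 30.5% had an unadjusted p under 0.05.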

How the data were processed

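Total RNA of hyphae was sequenced from 9 libraries, per the labels. The authors deposited 1 table of FPKM values rounded to 2 decimals, with coordinates and annotation. The sources used here name no aligner, counting program or genome build. Coordinates of the 39 members equal those of the RefSeq assembly of this strain, and are printed as the file gives them. The table holds 0 columns of other samples.

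Values were analysed as log2(FPKM + 1) by the trended moderated test of limma 3.58.1, run two-sided under R 4.3.3. The filter asked for 3 or more libraries at FPKM 1 or above, which left 10318 loci. All 9 libraries shared 1 model with no term for the replicate number. Benjamini-Hochberg adjustment covered those loci, with a threshold of 0.05. The fit was also run on simulated data with normal spread and with changes only in loci of higher level. That run does not cover low genes or a WT library that stands apart. An exact permutation test of 3 against 3 cannot give a p under 0.1.

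Depth was estimated from FPKM steps of loci spanning under 700 bp; 68.5 to 74.7% of their values lay within 0.1 of a whole fragment, and Aomdv1-labelled library 3 gave 80 values, against 364 to 425 in the others. Spans include introns, so this is approximate. No count test was run.

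Members, roles and the 6 pathway lists were set from annotation words, with earlier results of these data known. Named genes are called members, the 8 most abundant, 1 for each role otherwise unnamed, and up to 2 risen and 2 fallen genes per list. Further members and the neighbours of AOL_s00097g5 and of other called members were described after values were seen. Protein identity was not used. The settings varied were the pseudocount (0.1), the filter (none, or a mean of 5 FPKM), the scaling (median-ratio or quantile), a replicate block, a fit of the 2 groups alone, and each library left out in turn.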

Additional observations from a re-analysis of the deposited data

How the results depend on the processing

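No paired design was assumed: same-numbered libraries correlated at -0.28 to 0.39, with 3 of 9 pairs over 0.1, and the best match had the same number in 6 of 18 cases. With a replicate block 5 members were called in each mutant, and 894 and 1178 of all loci. It ended the calls of AOL_s00169g231 (Aomdv1, 0.0652) and AOL_s00081g129 (Aovps1, 0.0796) and, outside the family, of AOL_s00004g632 (Aomdv1, 0.0872), AOL_s00043g294 (Aomdv1, 0.0809) and AOL_s00004g139 (0.0649 and 0.0952). Called members ranged from 2 to 6 (Aomdv1) and 1 to 11 (Aovps1) when 1 library was left out, and stayed at 0 between the mutants. Members that entered through WT alone could not be tested when a WT library was left out. All loci called ranged from 515 to 1392, 586 to 2580 and 0 to 24 for these comparisons, against 1015, 1426 and 0. In the fit of the 2 groups alone the Aomdv1 mutant had 2 called members and 528 loci, and the Aovps1 mutant 9 and 2463. Between the mutants 1 locus was called without the filter and 1 with median-ratio scaling. Of called loci in the Aovps1 mutant, 62.3% rose, but 41.1% with median-ratio and 48.5% with quantile scaling. Without its most abundant member the family's share was 0.0576% and 0.0593% in the Aomdv1 and Aovps1 mutant and 0.0953% in WT. With 1 library left out it was 0.0855 to 0.111%, 0.0961 to 0.104% and, in WT, 0.1 to 0.167%. Values that changed sign were those of uncalled genes. With 1 library left out, AOL_s00081g27 ran from -0.07 to 2.16 (Aomdv1) and -2.02 to 0.19 (Aovps1), turning without WT library 3 and without WT library 1 or 2. AOL_s00188g343 (Aomdv1) ran from -1.14 to 0.68, turning without Aomdv1-labelled library 2 or 3 or WT library 3. AOL_s00080g195 (Aovps1) ran from -1.93 to 0.87, turning without WT library 3. AOL_s00097g206 (Aomdv1) ran from -0.29 to 0.02, turning without Aomdv1-labelled library 3. AOL_s00075g30 (Aomdv1) ran from -0.23 to 0.48, turning without WT library 1, and gave -0.03 and -0.02 with median-ratio and quantile scaling. The cause was not tested. Of the values of single genes under alternatives, 909 kept their direction and side of the threshold, 129 lost a call, 27 gained one and 11 changed sign. At the depths estimated, members under 1 FPKM rest on few fragments.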
